A study of Mus musculus with 15 samples.

Results

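The Fc gamma receptors of mouse bone marrow-derived macrophages (BMDMs) were followed over 5 conditions through 6 genes, chosen by name from the 51763 genes of the count table. *Fcgr1*, *Fcgr3* and *Fcgr4* encode the activating IgG receptors, *Fcgr2b* the inhibitory one, *Fcer1g* the signalling chain that the activating receptors share, and *Fcgrt* the heavy chain of the neonatal Fc receptor (FcRn). All 6 passed the filter on low counts, as did 16919 genes in all. The BMDMs came from wild-type (WT) C57BL/6NTac female mice of 8 to 10 weeks, were grown with macrophage colony-stimulating factor (M-CSF), were pooled from 5 mice before seeding and were stimulated for 24 h. Each of 5 groups had 3 libraries. Cells were given PBS, HMGB1, LPS alone at 1 µg/mL, or LPS together with IFNγ at 20 ng/mL (LPS/IFNγ). HMGB1 was given in its fully reduced form (frHMGB1) or its disulfide form (dsHMGB1), both at 5 µg/mL. Per the paper, frHMGB1 was made in buffers with DTT and dsHMGB1, a gift from another laboratory, without it. The frHMGB1 and dsHMGB1 groups thus differ in preparation as well as in redox form. For LPS/IFNγ the LPS dose is 100 ng/mL in one text of the labels and 1 µg/mL in their treatment field, so LPS/IFNγ and LPS may differ in LPS dose as well as in IFNγ. The 3 libraries of a group were technical replicates of 1 pool of mice, and every SD, standard error and p-value covers the spread between cultures and libraries, not between mice.

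Fc gamma receptors bind the constant part of IgG and let a macrophage take up antibody-coated particles and respond to immune complexes. The activating receptors reach the surface and signal with the FcR gamma chain, whose immunoreceptor tyrosine-based activation motif (ITAM) is phosphorylated by Src-family kinases and then docks the kinase Syk. FcγRIIB instead carries an immunoreceptor tyrosine-based inhibition motif (ITIM) in its own tail, which recruits the phosphatase SHIP1, so that the balance of activating to inhibitory receptors sets how strongly a macrophage answers IgG. FcRn works differently: inside acidic endosomes it pairs with β2-microglobulin, binds IgG and returns it to the surface.

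The known signalling motifs of the FcR gamma chain and FcγRIIB are shown as coding sequence, read 5′ to 3′ from the GENCODE M21 transcripts, with the motif in capitals. The *Fcer1g* stretch spans codons 57 to 86 of 86, with the ITAM at residues 65 to 79, and the *Fcgr2b* stretch spans codons 309 to 330 of 340, with the ITIM at residues 317 to 322. The ITIM consensus is short, and its letters alone also matched 3 times in the *Fcgr1* protein, 1 time each in those of *Fcgr4*, *Fcer1g* and *Fcgrt*, and 0 times in that of *Fcgr3*, so the pattern by itself does not mark the inhibitory receptor.
Fcer1g ITAM: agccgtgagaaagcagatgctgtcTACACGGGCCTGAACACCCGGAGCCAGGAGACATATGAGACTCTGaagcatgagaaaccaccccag
Fcgr2b ITIM: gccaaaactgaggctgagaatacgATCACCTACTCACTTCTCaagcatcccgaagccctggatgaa
Each receptor's extracellular part is related to the others. Over 509 aligned coding bases *Fcgr3* and *Fcgr2b* were 96.5% identical, whereas the other pairs of the 4 receptor genes had 71.8% to 78.7% identity over 75 to 642 aligned bases. Of the 1733 windows of 50 bases in the *Fcgr3* transcripts, 166 (9.58%) also occur in *Fcgr2b*, and these are 2.92% of the 5685 windows of *Fcgr2b*. With every other gene counted, *Fcgr3* included, 249 windows of *Fcgr2b* (4.38%) were shared. A read inside a shared window cannot be assigned by its sequence alone. How the counting treated such reads is not given in the sources used here. For *Fcgr1*, *Fcgr4*, *Fcer1g* and *Fcgrt*, 0 windows were shared with any other gene.

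Total counts lay between 40934540 and 80925478 per library. PBS replicate 3 stood apart: across genes its log2 CPM (counts scaled to library size) correlated at r = 0.933 and 0.938 with the other PBS libraries, against 0.987 to 0.993 for every other replicate pair. Where leaving it out ended a call or moved a value named here by over 1.5 times, the value without it is given too. The 7 macrophage markers (*Adgre1*, *Csf1r*, *Cd68*, *Itgam*, *Mertk*, *Lyz2* and *Spi1*) were all expressed and summed to 13900 to 27600 CPM, highest in frHMGB1 and lowest in LPS/IFNγ, and the part of this difference in the results was not tested. *Fcgr2b* is also a receptor of B cells, and the 6 B cell markers summed to 26.9 to 39.9 CPM in PBS and 14.6 to 16.2 CPM in LPS, nearly all from *Cd22*, with 9 counts of *Ms4a1* over all 15 libraries. The 5 NK cell markers stayed at or under 0.402 CPM and the 8 neutrophil markers at or under 5.56 CPM, with *Ly6g* and *Ncr1* at 0 counts. The 6 markers of mast cells or basophils stayed at or under 8.25 CPM. The 5 T cell markers summed to 13.5 to 35.4 CPM, all from *Cd4*, with *Cd3e* at 0 counts. Higher sums came from the 6 dendritic cell markers, 325 to 548 CPM and mostly *Itgax*, and the 6 fibroblast markers, 121 to 288 CPM. All 6 fibroblast markers passed the filter on low counts. In such bulk samples, fewer expressing cells and less RNA per cell cannot be told apart.

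Levels were compared between genes as TPM, counts scaled by gene length and library size, with the union of each gene's exons as the length. *Fcer1g* was the most abundant member in every group, with 2820 ± 146 TPM in PBS and 4090 ± 228 in LPS (SD, n = 3), which placed it between rank 27 and rank 37 of 21649 protein-coding genes. In PBS it was followed by *Fcgr3* (1060, 1090 and 728 TPM), *Fcgr4* (221 ± 9.43), *Fcgrt* (170 ± 26.8), *Fcgr1* (122 ± 12.5) and *Fcgr2b* (56.5 ± 23.3, SD, n = 3). No neighbours in this order overlapped within PBS at this length. With the longest transcript the means kept this order, but some gaps were within the SDs. *Fcgr4* was at 171 ± 8.07 and *Fcgrt* at 157 ± 23.8, and *Fcgr1* at 94.9 ± 10.2 and *Fcgr2b* at 71.8 ± 29.8 (SD, n = 3). The order changed with stimulation. In LPS/IFNγ, *Fcgr4* (1970 ± 64.8 TPM, SD, n = 3) passed *Fcgr3* (1610 ± 26.5, SD, n = 3), with at least 1900 TPM in each library against at most 1640. That order rests on the length used: with the longest transcript, 1347 instead of 1736 bases for *Fcgr3*, the levels were 1550 ± 51 for *Fcgr4* and 1630 ± 26.8 for *Fcgr3* (SD, n = 3). In dsHMGB1, *Fcgr3* (453 ± 25.7 TPM, SD, n = 3) remained above *Fcgr1* (316 ± 9, SD, n = 3) and *Fcgr4* (295 ± 4.16, SD, n = 3), and *Fcgr2b* reached 186 ± 5.01 (SD, n = 3). With the longest transcript, 3544 bases instead of 5790 for *Fcgr2b*, the *Fcgr2b* level in dsHMGB1 was 239 ± 5.92 TPM and those of *Fcgr1* and *Fcgr4* were 249 ± 6.79 and 233 ± 3.49 (SD, n = 3), so the order of these 3 genes also depends on the length.

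Within a gene, groups were compared by normalized counts, which are the counts divided by a size factor for each library. A gene was called when its edgeR quasi-likelihood p, adjusted by Benjamini-Hochberg, was under 0.05, and log2 fold changes with standard errors (SE) are DESeq2's. In frHMGB1 against PBS, 0 of the 6 genes were called, where 1.31% of all genes tested were called higher and 5.69% lower, and none of the 6 had a DESeq2 adjusted p under 0.05. At an unadjusted edgeR p under 0.05 there was 1 member, *Fcgrt*. Without PBS replicate 3 the all-gene percentages were 8.41% higher and 9.09% lower, and 2 members were called higher. In dsHMGB1 against PBS, 4 members were called higher (23.3% of all genes) and 2 lower (24.2%). In LPS against PBS, 4 were higher (26.7%) and 1 lower (36.2%), and in LPS/IFNγ against PBS, 5 were higher (29%) and 1 lower (31.2%). These 4 comparisons share the PBS libraries. Against frHMGB1, dsHMGB1 had 4 members higher (27.7%) and 1 lower (23.1%). Against LPS, dsHMGB1 had 0 higher (15.8%) and 4 lower (10.6%), and against LPS/IFNγ it had 1 higher (16.5%) and 2 lower (16.7%). Between LPS/IFNγ and LPS, 2 members were higher (16.3%) and 2 lower (9.36%).

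**Figure D1:**
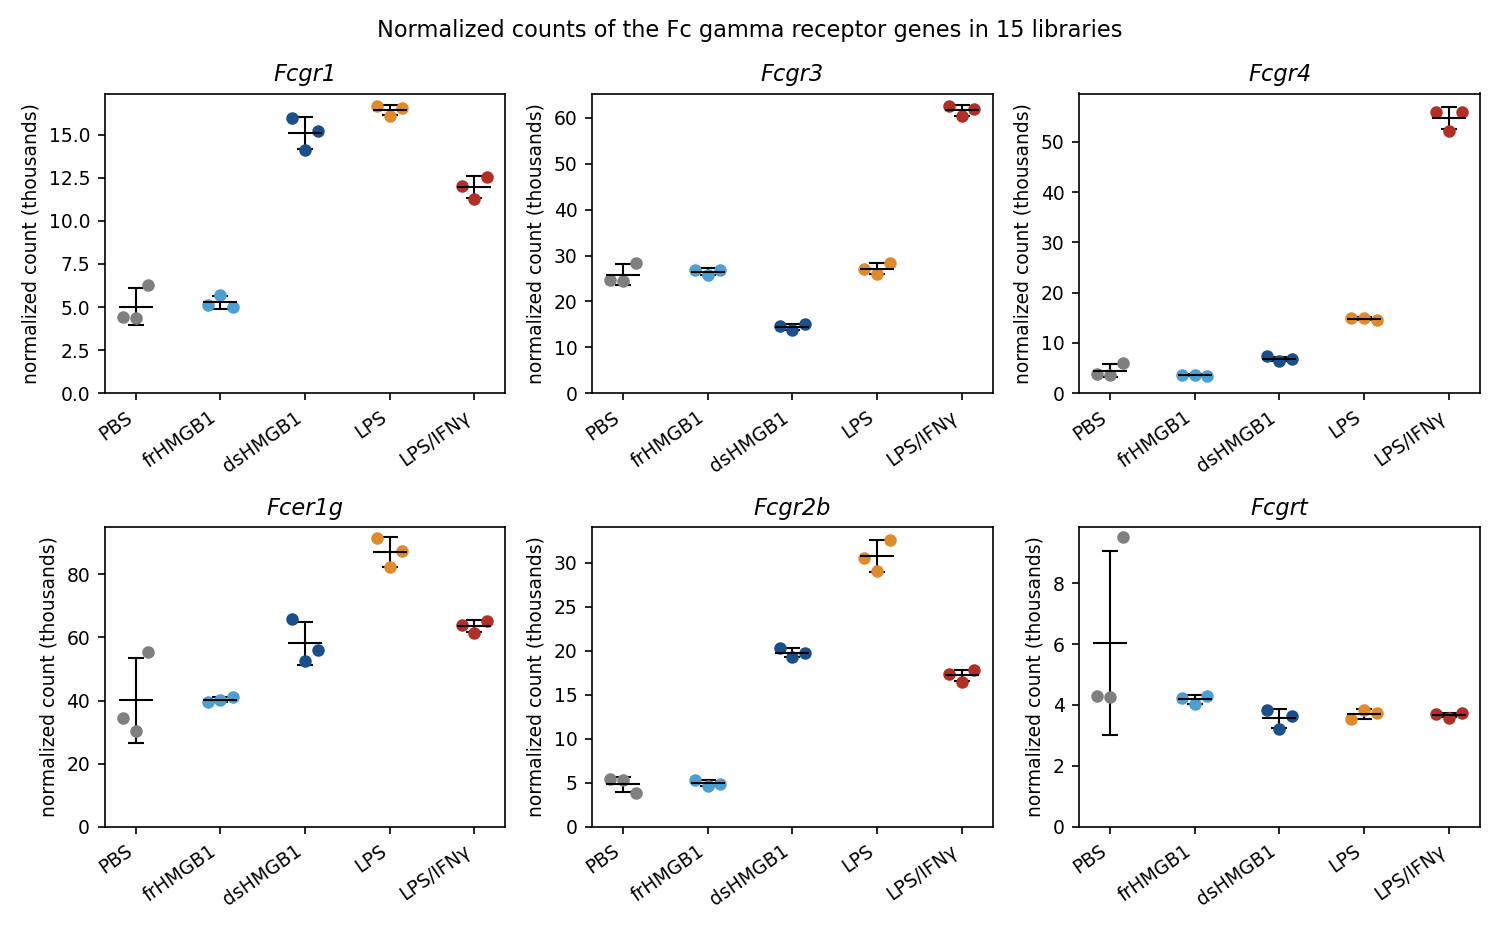
Normalized counts (y axes, from 0, in kilocounts) of the 6 genes in each of the 15 libraries (points) by group, with the mean and SD of 3 libraries (black). *Fcgr4* and *Fcgr3* stand highest in LPS/IFNγ, *Fcgr2b* and *Fcer1g* in LPS, and the wide PBS spread of *Fcgrt* and *Fcer1g* comes with PBS replicate 3.

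*Fcgr4* encodes FcγRIV, an activating receptor for IgG2a and IgG2b. In LPS/IFNγ it had the largest rise of the 6 members. By library, normalized counts were 3858, 3577 and 5993 for PBS, 3638, 3700 and 3458 for frHMGB1, 7337, 6481 and 6720 for dsHMGB1, 14969, 14985 and 14520 for LPS and 56018, 52140 and 55944 for LPS/IFNγ. The dsHMGB1, LPS and LPS/IFNγ libraries formed 3 steps that did not overlap with each other or with PBS, while frHMGB1 and PBS overlapped. The log2 fold change over PBS was 0.61 (SE 0.17, adjusted p = 0.00196) in dsHMGB1, 1.73 (SE 0.17, adjusted p = 1.71e-07) in LPS and 3.61 (SE 0.17, adjusted p = 1.38e-10) in LPS/IFNγ, a 12.2-fold rise. The level in LPS/IFNγ was 3.69-fold that in LPS (adjusted p = 4.33e-07) and 7.99-fold that in dsHMGB1 (adjusted p = 4.78e-09), and the level in LPS was 2.17-fold that in dsHMGB1 (adjusted p = 7.42e-05). The dsHMGB1 call was lost when dsHMGB1 and PBS were fitted alone (adjusted p = 0.0732), and without PBS replicate 3 its log2 fold change was 0.88 (adjusted p = 2.13e-09).

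*Fcgr3* encodes FcγRIII, the low-affinity activating receptor, and it moved in opposite directions under dsHMGB1 and LPS/IFNγ. The PBS libraries had 24585, 24506 and 28426 normalized counts and the frHMGB1 libraries 26841, 25728 and 26961. With dsHMGB1 the values were 14558, 13845 and 15037, with LPS alone 27063, 26066 and 28402, and with both LPS and IFNγ 62686, 60368 and 62029. The dsHMGB1 libraries lay below all others and the LPS/IFNγ libraries above all others, and PBS, frHMGB1 and LPS overlapped. *Fcgr3* fell by 0.84 on the log2 scale in dsHMGB1 (SE 0.07, adjusted p = 5.06e-07) and rose by 1.26 in LPS/IFNγ (SE 0.07, adjusted p = 6.16e-09). In LPS its log2 fold change over PBS was 0.07 (SE 0.07, adjusted p = 0.879), but scaled by library totals alone it was -0.61 (adjusted p = 1.14e-05), so the comparison of LPS with PBS turned on the scaling. That scaling moved the median log2 fold change of all genes tested from -0.1 to -0.46 in dsHMGB1, from -0.21 to -0.89 in LPS and from -0.12 to -0.81 in LPS/IFNγ, each over PBS. With it, genes called higher made up 28.1% instead of 49% of all calls in dsHMGB1, 21.9% instead of 42.5% in LPS and 25.3% instead of 48.2% in LPS/IFNγ. Relative to LPS, *Fcgr3* was lower in dsHMGB1 by either scaling, with a log2 fold change of -0.91 (SE 0.07, adjusted p = 2.54e-06) and -0.57 with library totals (adjusted p = 0.000114). In LPS/IFNγ it was 2.27-fold its level in LPS (adjusted p = 8.09e-08) and 4.26-fold its level in dsHMGB1 (adjusted p = 4.25e-10).

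*Fcgr1* encodes FcγRI, the high-affinity receptor that binds monomeric IgG. It rose in dsHMGB1, LPS and LPS/IFNγ, called here the 3 pro-inflammatory groups. By library, normalized counts were 4419, 4389 and 6278 for PBS, 5108, 5695 and 4992 for frHMGB1, 15952, 14131 and 15208 for dsHMGB1, 16681, 16084 and 16536 for LPS and 12006, 11271 and 12541 for LPS/IFNγ. Every library of these 3 groups lay above every PBS and frHMGB1 library. The rise over PBS was 3-fold in dsHMGB1 (log2 1.59, SE 0.14, adjusted p = 7.67e-08), 3.27-fold in LPS (log2 1.71, SE 0.14, adjusted p = 3.06e-08) and 2.38-fold in LPS/IFNγ (log2 1.25, SE 0.14, adjusted p = 5.42e-07). Levels in dsHMGB1 and LPS were not called different (log2 -0.12, SE 0.14, adjusted p = 0.715). Unlike *Fcgr3* and *Fcgr4*, *Fcgr1* was lower in LPS/IFNγ than in LPS, by 0.46 on the log2 scale (SE 0.14, adjusted p = 0.0126). It was 1.26-fold higher in dsHMGB1 than in LPS/IFNγ (adjusted p = 0.0255), a call that was lost with RLE normalization (adjusted p = 0.0542), without a filter on low counts (adjusted p = 0.072) and without any one of 4 of the 6 libraries (dsHMGB1 replicate 1 or 3, LPS/IFNγ replicate 1 or 2). Without PBS replicate 3, *Fcgr1* was also called higher in frHMGB1 (log2 0.26, adjusted p = 0.0192).

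*Fcer1g* encodes the FcR gamma chain, on which surface expression and signalling of the activating receptors depend. The PBS libraries had 34520, 30371 and 55490 normalized counts and the frHMGB1 libraries 39552, 40178 and 41178. With dsHMGB1 the values were 65760, 52449 and 56155, with LPS alone 91541, 82235 and 87531, and with both LPS and IFNγ 63805, 61505 and 65350. LPS was highest, dsHMGB1 and LPS/IFNγ overlapped, and PBS replicate 3 reached into the dsHMGB1 range. The log2 fold change over PBS was 0.53 (SE 0.19, adjusted p = 0.0122) in dsHMGB1, 1.12 (SE 0.19, adjusted p = 5.45e-05) in LPS and 0.66 (SE 0.19, adjusted p = 0.00275) in LPS/IFNγ. With library totals the call was lost in dsHMGB1 (log2 0.21, adjusted p = 0.175) and LPS/IFNγ (log2 0.02, adjusted p = 0.901), and with each pair fitted alone it was lost in the same groups (adjusted p = 0.142 and 0.0526). Without PBS replicate 3 the log2 fold changes were 0.84 with dsHMGB1, 1.42 with LPS and 0.96 with LPS/IFNγ, all called, and 0.32 in frHMGB1 (adjusted p = 0.0136). In dsHMGB1 it was lower than in LPS by 0.58 on the log2 scale (SE 0.19, adjusted p = 0.023), which was not called with library totals (adjusted p = 0.157) or without dsHMGB1 replicate 2, dsHMGB1 replicate 3 or LPS replicate 1. The rise of 0.53 over frHMGB1 (adjusted p = 0.0166) was not called without dsHMGB1 replicate 1 or with library totals (log2 0.12, adjusted p = 0.424). The decrease of 0.45 from LPS to LPS/IFNγ missed the threshold (adjusted p = 0.0678) but was called with library totals (log2 -0.44, adjusted p = 0.0215) and with the pair fitted alone (adjusted p = 3.75e-09).

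*Fcgr2b*, the inhibitory receptor, had the largest rise of the 6 genes in both dsHMGB1 and LPS. By library, normalized counts were 5373, 5275 and 3859 for PBS, 5334, 4661 and 4856 for frHMGB1, 20368, 19259 and 19800 for dsHMGB1, 30587, 29134 and 32649 for LPS and 17380, 16465 and 17770 for LPS/IFNγ. PBS and frHMGB1 overlapped, and the other 3 groups lay above them without overlapping each other. *Fcgr2b* rose 4.09-fold over PBS in dsHMGB1 (log2 2.03, SE 0.12, adjusted p = 3.22e-08), 6.36-fold in LPS (log2 2.67, SE 0.12, adjusted p = 1.76e-09) and 3.56-fold in LPS/IFNγ (log2 1.83, SE 0.12, adjusted p = 5.53e-08). Its level in LPS/IFNγ was below that in LPS by 0.84 on the log2 scale (SE 0.12, adjusted p = 0.000444), which is opposite in sign to the differences of *Fcgr3* (1.18) and *Fcgr4* (1.88) in the same comparison. It was 1.55-fold higher in LPS than in dsHMGB1 (adjusted p = 0.00442), which was not called with library totals (log2 -0.3 for dsHMGB1 against LPS, adjusted p = 0.178). Between dsHMGB1 and LPS/IFNγ the log2 difference was 0.2 (SE 0.12, adjusted p = 0.224), and it was called with the 2 groups fitted alone (adjusted p = 0.00988) and with library totals (adjusted p = 0.0204).

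**Figure D2:**
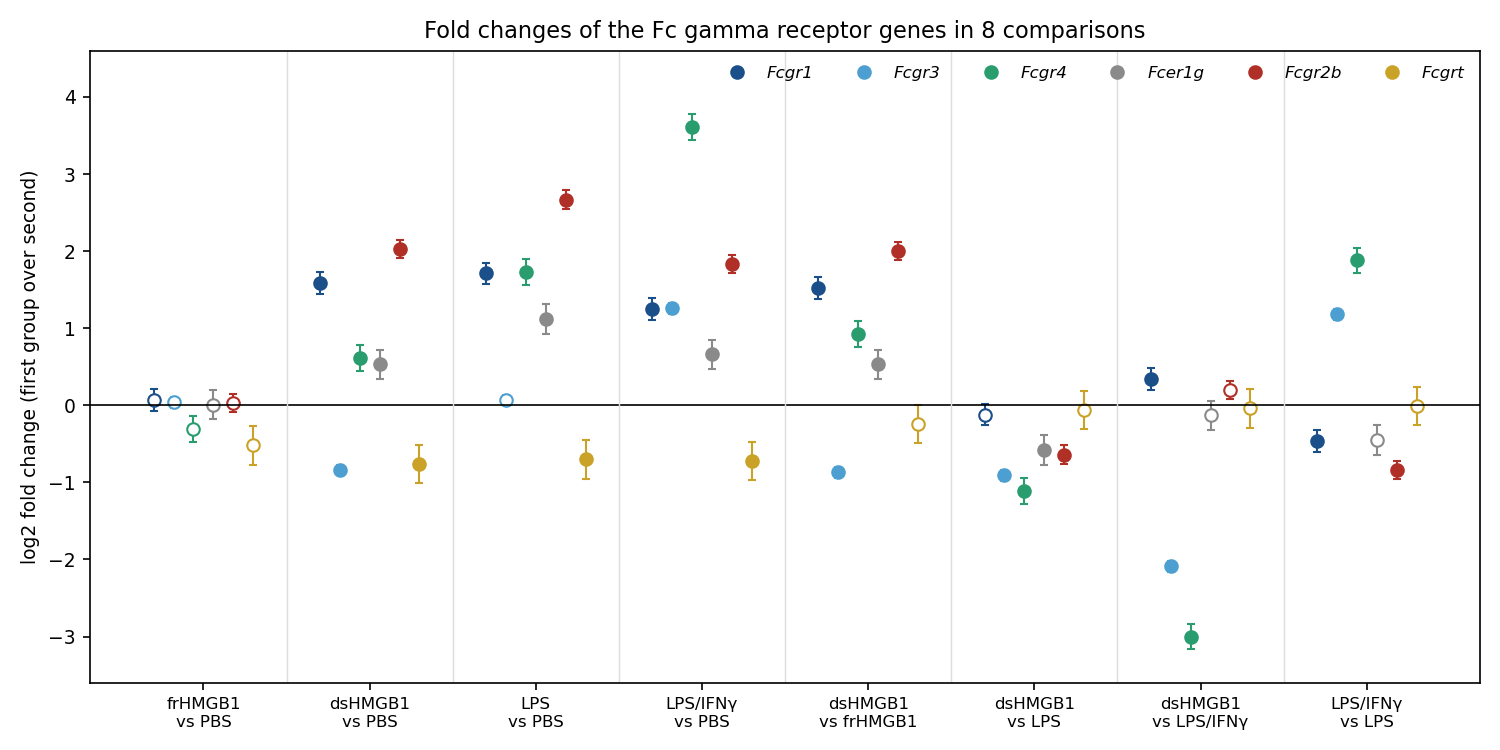
Log2 fold changes (y axis) with SE bars of the 6 genes in the 8 comparisons (x axis), filled where edgeR's adjusted p was under 0.05 and open where it was not. *Fcgr2b* leads the rises in dsHMGB1 and LPS, *Fcgr4* leads in LPS/IFNγ, and only between LPS/IFNγ and LPS did *Fcgr3* and *Fcgr4* rise while *Fcgr1* and *Fcgr2b* fell.

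The balance of activating to inhibitory transcripts was measured in each library as the TPM of an activating receptor over the TPM of *Fcgr2b*. Because both genes come from the same library, library size and normalization cancel in this ratio, and gene length cancels in its differences between groups. With 3 libraries against 3, the smallest p of a two-sided exact permutation test is 0.1, so no ratio could pass 0.05. Of 24 comparisons of a ratio, 21 had groups that did not overlap (exact permutation test, p = 0.1, adjusted over the 24 to 0.114). The 3 that overlapped were all between frHMGB1 and PBS. How often ratios of other genes separate these groups was not counted, so the 21 are a description and not a trait of these receptors. For scale, 8028, 10636 and 10198 of the 16919 genes tested were called in dsHMGB1, LPS and LPS/IFNγ against PBS.

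The ratio of *Fcgr3* to *Fcgr2b* was 15.3, 15.5 and 24.6 in PBS and 16.8, 18.4 and 18.5 in frHMGB1. It was 2.38, 2.4 and 2.53 in dsHMGB1 and 2.95, 2.98 and 2.9 in LPS, and 12, 12.2 and 11.6 in LPS/IFNγ. The ratio in dsHMGB1 was therefore 7.38-fold below PBS (log2 difference -2.88, SE 0.23) and in LPS 6.1-fold below PBS (-2.61, SE 0.23), while in LPS/IFNγ it was 1.5-fold below PBS (-0.59, SE 0.23). These differences were -2.66, -2.38 and -0.36 without PBS replicate 3. In dsHMGB1 the numerator fell and the denominator rose. In LPS *Fcgr2b* rose, and *Fcgr3* was at 644, 618 and 664 TPM against 1060, 1090 and 728 in PBS. On the scale of the ratio the numerator was thus lower in LPS too, although the normalized *Fcgr3* counts were not called different from PBS. LPS/IFNγ had 4.06-fold the ratio of LPS (log2 difference 2.02, SE 0.02).

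For *Fcgr4* over *Fcgr2b* the PBS libraries had ratios of 3.31, 3.13 and 7.16 and the frHMGB1 libraries 3.14, 3.66 and 3.28. The ratios were 1.66, 1.55 and 1.56 with dsHMGB1, 2.26, 2.37 and 2.05 with LPS, and 14.9, 14.6 and 14.5 with LPS/IFNγ. Relative to PBS, the log2 difference was -1.4 (SE 0.39) for dsHMGB1, -0.92 (SE 0.39) for LPS and 1.8 (SE 0.39) for LPS/IFNγ. PBS replicate 3 is the highest PBS library here, and without it these differences were -1.02, -0.53 and 2.19, with the other PBS libraries still above every dsHMGB1 and LPS library. Between LPS/IFNγ and dsHMGB1 the ratio differed 9.21-fold, which was the widest of the 24.

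The ratio of *Fcgr1* to *Fcgr2b* was lowest in LPS. By library it was 1.84, 1.86 and 3.64 for PBS, 2.14, 2.73 and 2.3 for frHMGB1, 1.75, 1.64 and 1.72 for dsHMGB1, 1.22, 1.23 and 1.13 for LPS and 1.54, 1.53 and 1.58 for LPS/IFNγ. Both genes rose in the 3 pro-inflammatory groups, and *Fcgr2b* rose by more in each. The log2 differences from PBS were -0.45 (SE 0.33) with dsHMGB1, -0.96 (SE 0.33) with LPS and -0.58 (SE 0.33) with LPS/IFNγ. They were -0.12, -0.63 and -0.25 without PBS replicate 3.

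Summed over the 3 activating receptors and given as a description, with no test, the ratio to *Fcgr2b* was 20.4, 20.5 and 35.4 in PBS and 22.1, 24.8 and 24.1 in frHMGB1. It was 5.8, 5.59 and 5.82 in dsHMGB1, 6.43, 6.59 and 6.08 in LPS, and 28.4, 28.4 and 27.7 in LPS/IFNγ. By this measure every dsHMGB1 and LPS library lay below every PBS library. LPS/IFNγ lay between PBS replicate 3 and the other PBS libraries, so without PBS replicate 3 it lay above every PBS and frHMGB1 library. With the longest transcript as the length, the geometric mean was 18.2 instead of 24.5 for PBS, 17.6 instead of 23.6 for frHMGB1, 3.94 instead of 5.73 for dsHMGB1, 4.42 instead of 6.36 for LPS and 19.4 instead of 28.2 for LPS/IFNγ. The same choice moved the ratio of *Fcgr1* to *Fcgr2b* by over 1.5-fold, from 2.32 to 1.42 in PBS and from 1.19 to 0.731 in LPS, and that of *Fcgr4* to *Fcgr2b* from 14.7 to 8.97 in LPS/IFNγ, all as geometric means.

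**Figure D3:**
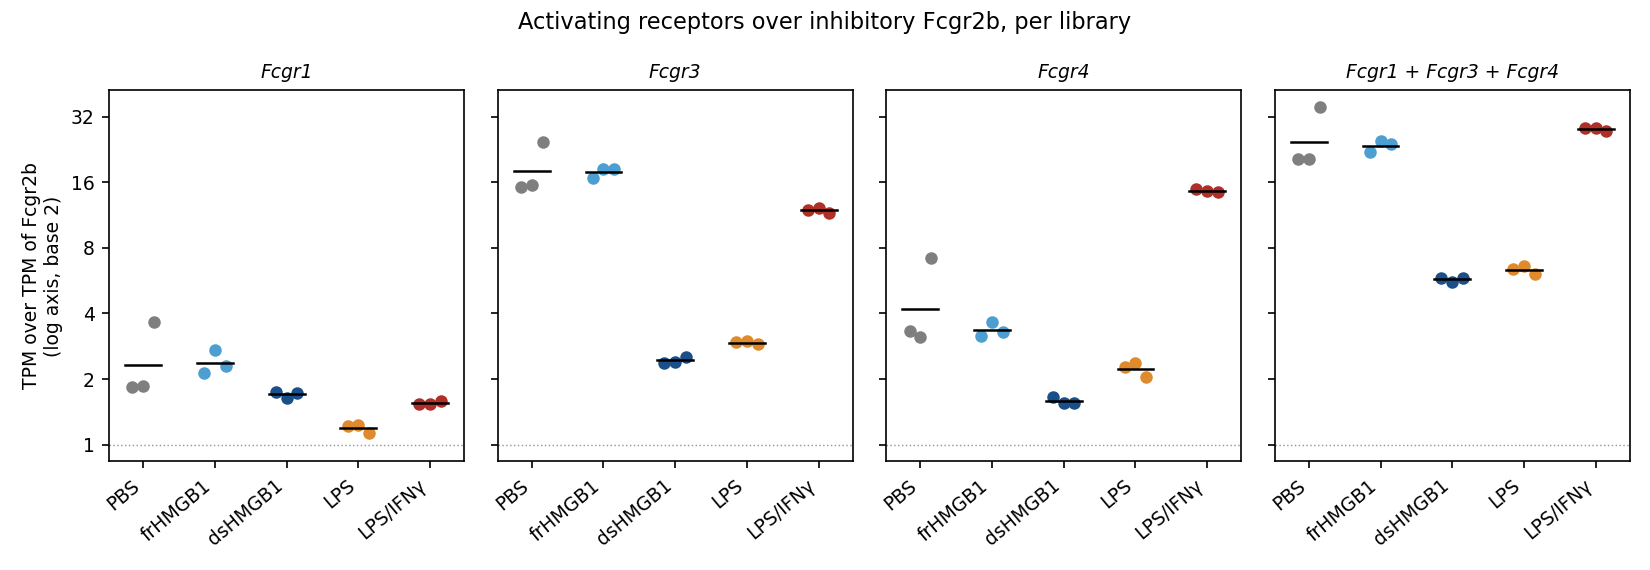
Ratio of TPM to that of *Fcgr2b* (log axis, base 2) in each library (points) for *Fcgr1*, *Fcgr3*, *Fcgr4* and their sum, by group, with the geometric mean as a line. For *Fcgr3*, *Fcgr4* and the sum, dsHMGB1 and LPS lie below PBS, and LPS/IFNγ lies at 27.7 to 28.4 for the sum, below PBS replicate 3 at 35.4 and above the other PBS libraries at 20.4 and 20.5.

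The makeup of the receptor transcripts shows the same data as shares of the summed TPM of the 4 receptors. For *Fcgr3* the share was 70.3% ± 2.43 in PBS, 72.6% ± 1.22 in frHMGB1 and, on average, 36.2% to 41% in the other groups (SD, n = 3). *Fcgr4* made up 50.2% ± 0.445 of LPS/IFNγ against 16.6% ± 2.74 of PBS (SD, n = 3), and with the longest transcript as the length 44.1% ± 0.447 of LPS/IFNγ, below *Fcgr3* at 46.4% ± 0.596. *Fcgr1* had its largest share in dsHMGB1, 25.3% ± 0.443, against 16.2% ± 0.22 with LPS and 5.32% ± 0.152 with LPS/IFNγ (SD, n = 3). The inhibitory *Fcgr2b* took 14.9% ± 0.278 with dsHMGB1 and 13.6% ± 0.481 with LPS, but 4.02% ± 1.1 with PBS and 3.43% ± 0.0454 with LPS/IFNγ (SD, n = 3).

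**Figure D4:**
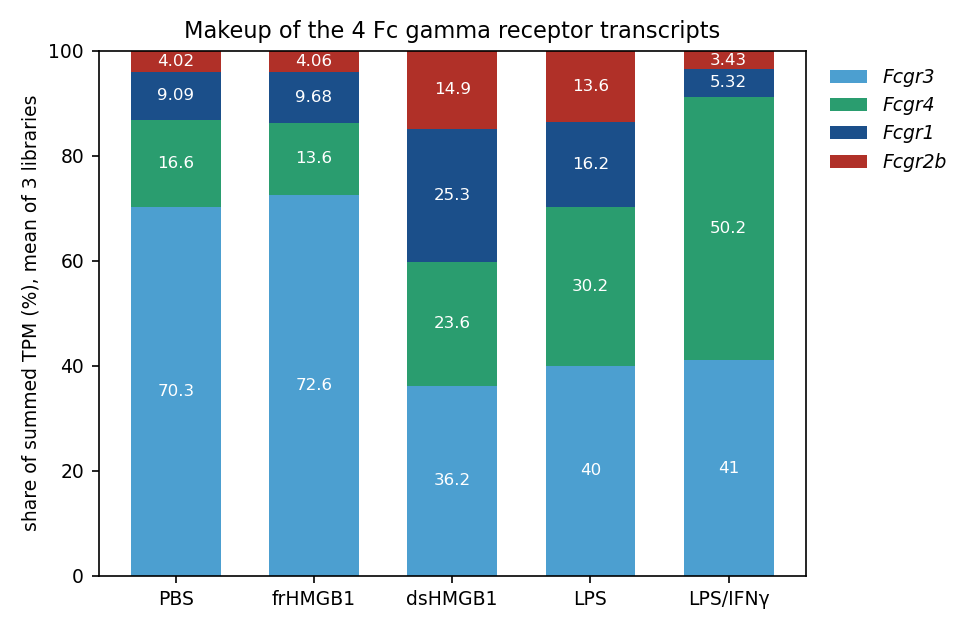
Mean share (y axis, percent, 3 libraries per group) of the summed TPM of the 4 Fc gamma receptor genes that each gene took in the 5 groups (bars). *Fcgr3* leads in PBS and frHMGB1 with 70.3% and 72.6%, and *Fcgr4* leads in LPS/IFNγ with 50.2% when the union of exons is the length, as plotted.

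*Fcgrt* was lower than in PBS in all 3 pro-inflammatory groups. The PBS libraries had 4306, 4261 and 9520 normalized counts and the frHMGB1 libraries 4232, 4031 and 4302. With dsHMGB1 the values were 3836, 3210 and 3630, with LPS alone 3536, 3821 and 3748, and with both LPS and IFNγ 3689, 3582 and 3722. PBS replicate 3 was more than 2 times every other library, and the 3 pro-inflammatory groups overlapped each other. The log2 fold change over PBS was -0.76 (SE 0.25, adjusted p = 0.0116) with dsHMGB1, -0.7 (SE 0.25, adjusted p = 0.00874) with LPS and -0.72 (SE 0.25, adjusted p = 0.0106) with LPS/IFNγ. These sizes rest on PBS replicate 3: without it they were -0.27 (adjusted p = 0.00083), -0.22 (adjusted p = 0.00175) and -0.24 (adjusted p = 0.000776). With each pair fitted alone none of the 3 was called (adjusted p = 0.129, 0.161 and 0.146). Its partner *B2m*, which encodes β2-microglobulin, moved the other way, with 110485 normalized counts on average in PBS, 181637 in dsHMGB1 (log2 0.72, SE 0.18, adjusted p = 0.00107), 273020 in LPS (1.31, SE 0.18, adjusted p = 5.79e-06) and 263226 in LPS/IFNγ (1.25, SE 0.18, adjusted p = 6.1e-06). The rise of *B2m* in dsHMGB1 was not called with the pair fitted alone (adjusted p = 0.0542), and without PBS replicate 3 *B2m* was also called higher in frHMGB1 (log2 0.38, adjusted p = 0.000687).

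The genes that act downstream of the receptors were described as lists, each beside all genes tested. Being on a list does not fix what a gene's product does. The list of activating ITAM signalling also holds *Cblb*, which restrains that signalling. Of 33 genes of activating ITAM signalling (Src-family kinases, Syk, adaptors, PI3 kinase and phospholipase C gamma among them), 16 were called higher and 6 lower with dsHMGB1, 18 and 11 with LPS, and 18 and 11 with LPS/IFNγ, all over PBS. Of all genes tested, 23.3% were called higher and 24.2% lower for dsHMGB1, 26.7% and 36.2% for LPS, 29% and 31.2% for LPS/IFNγ, and 1.31% and 5.69% for frHMGB1, and the same percentages stand behind the lists that follow. With library totals the list's counts were 14 and 11, 13 and 14, and 13 and 13. Which direction prevails in LPS therefore turned on the scaling. With that scaling, 15.5% of all genes were called higher and 39.5% lower for dsHMGB1. The shares were 15.7% and 55.9% for LPS, 17.6% and 51.9% for LPS/IFNγ, and 1.09% and 5.6% for frHMGB1. They stand behind the library-total counts of the lists that follow. The median log2 fold change of the list was 0.54, 0.52 and 0.54 in the 3 groups, against -0.1, -0.21 and -0.12 for all genes tested. In frHMGB1, 2 were called higher and 0 lower, among them the kinase gene *Fgr* (log2 0.64, SE 0.12, adjusted p = 0.00419), and 7 and 0 without PBS replicate 3. *Fgr* was not called with that pair fitted alone (adjusted p = 0.19). With protein-coding genes only, 0 genes of the list were called higher or lower in frHMGB1. Of all protein-coding genes tested, 0.315% were called higher and 0.223% lower there. Without PBS replicate 3, 29.8% of all genes were called higher and 29% lower for dsHMGB1. The shares were 32.9% and 38.3% for LPS, 33.3% and 34.4% for LPS/IFNγ, and 8.41% and 9.09% for frHMGB1. They stand behind the counts without that library here and in the lists that follow.

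*Lcp2*, which encodes the adaptor SLP-76, had the largest rise of the ITAM list. It went from 1272, 1304 and 707.6 normalized counts in PBS to 24283, 26125 and 26612 in dsHMGB1, 46792, 48021 and 49094 in LPS, and 47403, 48880 and 50277 in LPS/IFNγ. Over PBS these were log2 fold changes of 4.55, 5.45 and 5.48 (SE 0.18 each, adjusted p at most 1.1e-09). The kinase gene *Src* (log2 3.61, SE 0.06, in LPS and 3.71, SE 0.06, in LPS/IFNγ) also rose. Among those that fell were *Tec*, a kinase (-2.18, SE 0.1, in dsHMGB1 and -2.08, SE 0.1, in LPS), *Lat2*, an adaptor (-1.22, SE 0.07, in dsHMGB1 and -2.16, SE 0.07, in LPS/IFNγ), and *Vav2*, an exchange factor for small GTPases (-2.23, SE 0.18, in LPS and -2.52, SE 0.18, in LPS/IFNγ). *Tec* was 3.02-fold higher in LPS/IFNγ than in LPS (adjusted p = 7.84e-08), and *Cblb*, a ubiquitin ligase that restrains ITAM signalling, was 3.61-fold higher (adjusted p = 7.19e-05), while *Fgr* was 2.9-fold lower (adjusted p = 1.88e-06) and *Pik3r5*, a PI3 kinase subunit, 2.21-fold lower (adjusted p = 4.54e-05).

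Of the 9 genes listed under inhibitory ITIM signalling, 3 were called higher and 4 lower than in PBS with dsHMGB1. The counts were 3 and 4 with LPS and 5 and 3 with LPS/IFNγ. Their medians were -0.19, -0.22 and 0.72 on the log2 scale, against -0.1, -0.21 and -0.12 for all genes tested. With library totals the counts were 2 and 5, 3 and 5, and 4 and 4. In frHMGB1 only *Ptpn6* was called (log2 0.29, SE 0.1, adjusted p = 0.048), and 3 genes were called higher without PBS replicate 3. *Ptpn6* was not called with the pair fitted alone (adjusted p = 0.892) or with protein-coding genes only. *Inpp5d*, which encodes the SHIP1 phosphatase recruited by FcγRIIB, fell in the same 3 groups in which *Fcgr2b* rose over PBS. By library, normalized counts were 11174, 10875 and 6742 for PBS, 10748, 9661 and 9516 for frHMGB1, 2166, 2458 and 2387 for dsHMGB1, 726.5, 990.9 and 954.3 for LPS and 1398, 1309 and 1374 for LPS/IFNγ. The fall was 4.11-fold in dsHMGB1 (log2 -2.04, SE 0.18, adjusted p = 9.12e-07), 10.8-fold in LPS (-3.43, SE 0.19, adjusted p = 4.37e-09) and 7.06-fold in LPS/IFNγ (-2.82, SE 0.18, adjusted p = 2.48e-08). The level in LPS was the lowest, and that in dsHMGB1 was 2.63-fold higher (adjusted p = 8.27e-05). *Dok3*, an adaptor of inhibitory signalling, fell by 1.31 (SE 0.28) with dsHMGB1, by 2.47 (SE 0.28) with LPS and by 3 (SE 0.28) with LPS/IFNγ on the log2 scale. The *Dok3* values were -0.8, -1.96 and -2.5 without PBS replicate 3.

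Other phosphatase genes of the same list rose, and being on the list does not mean that a gene's product acts only as an inhibitor. *Ptpn6*, which encodes SHP-1, had a log2 fold change over PBS of 1.38 (SE 0.1, adjusted p = 2.72e-08) in dsHMGB1, with 35869, 32824 and 34951 normalized counts against 12393, 11582 and 15753 in PBS. *Ptpn11*, which encodes SHP-2, rose by 1.43 (SE 0.23) in LPS and 1.36 (SE 0.23) in LPS/IFNγ, and *Ptprc*, which encodes CD45, by 1.39 (SE 0.31), 1.57 (SE 0.31) and 2.13 (SE 0.31) in dsHMGB1, LPS and LPS/IFNγ. The *Ptprc* rise in dsHMGB1 was not called with that pair fitted alone (adjusted p = 0.0669). *Dok2*, another inhibitory adaptor, split the groups: it was 5.1-fold higher in LPS/IFNγ than in LPS (log2 2.35, SE 0.14, adjusted p = 2.69e-08), at 3382, 3396 and 3317 against 668.3, 686 and 626.4 normalized counts.

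**Figure D5:**
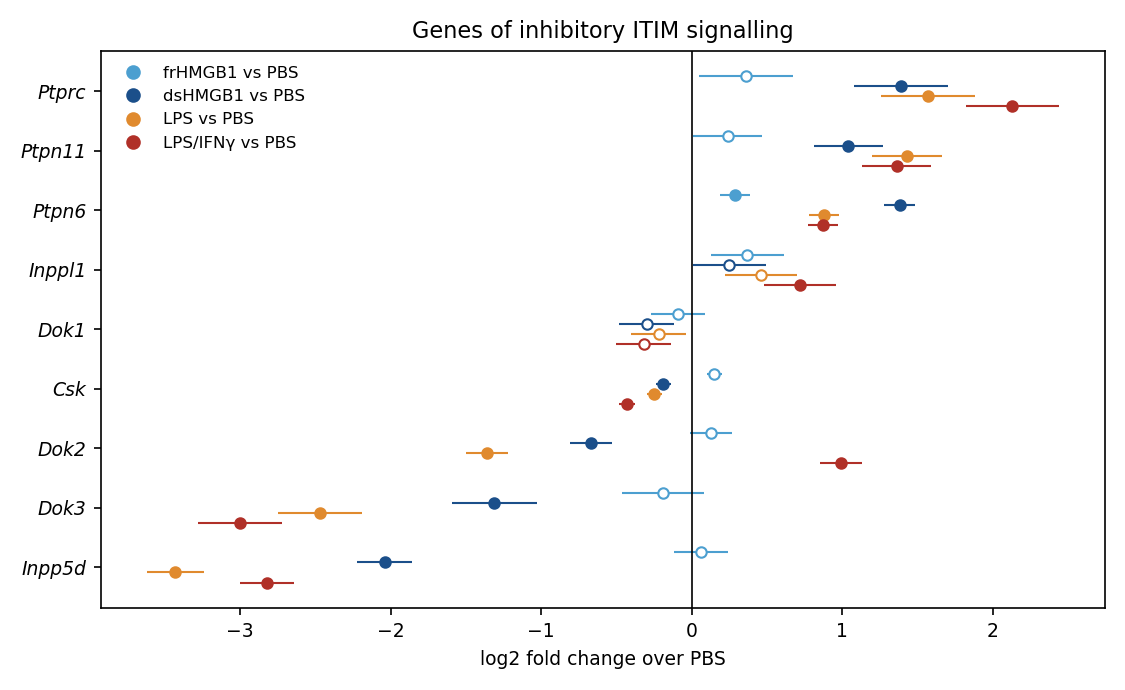
Log2 fold changes over PBS (x axis) with SE bars of the 9 genes listed under inhibitory ITIM signalling in the 4 stimulations. Points are filled where edgeR's adjusted p was under 0.05 and open where it was not. *Inpp5d* and *Dok3* lie below 0 and *Ptpn6*, *Ptpn11* and *Ptprc* above 0 in dsHMGB1, LPS and LPS/IFNγ, and *Dok2* lies at 0.99 in LPS/IFNγ but at -0.67 in dsHMGB1 and -1.36 in LPS.

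Of 41 genes of the phagocytosis machinery that Fc gamma receptors engage, 40 were tested. Over PBS, 19 were called higher and 4 lower with dsHMGB1, 22 and 7 with LPS, 18 and 6 with LPS/IFNγ, and 2 and 0 in frHMGB1. Without PBS replicate 3 the counts were 24 and 8, 25 and 11, 22 and 10, and 13 and 1, and with library totals 11 and 8, 12 and 12, 12 and 15, and 2 and 0, so for LPS/IFNγ the prevailing direction turned on the scaling. The medians were 0.35, 0.49, 0.46 and 0.17 on the log2 scale, against -0.1, -0.21, -0.12 and -0.01 for all genes tested. *Marcksl1*, an actin-binding substrate of protein kinase C, had the largest rise, from 294.2, 339.3 and 376.1 normalized counts in PBS to 55669, 47702 and 50309 in dsHMGB1 and 78380, 79146 and 78874 in LPS, and it was also 2.1-fold higher in frHMGB1 (log2 1.07, SE 0.1, adjusted p = 9.7e-06). *Vasp*, which promotes actin filament growth, rose 10.4-fold in dsHMGB1 (log2 3.37, SE 0.1). *Sphk1*, sphingosine kinase, marked a difference between the stimuli, with 226, 144.5 and 155.5 normalized counts in dsHMGB1, 1673, 1305 and 1588 in LPS and 3702, 4005 and 3726 in LPS/IFNγ. It was 8.7-fold lower in dsHMGB1 than in LPS (adjusted p = 1.23e-07) and 21.8-fold lower than in LPS/IFNγ (adjusted p = 2.62e-09). *Pla2g6*, a phospholipase A2, fell by 1.19 (SE 0.17) with dsHMGB1, 2.21 (SE 0.19) with LPS and 2.16 (SE 0.18) with LPS/IFNγ on the log2 scale.

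Of 13 other Fc receptor genes, 6 were tested, and 3 were called higher and 2 lower than in PBS with dsHMGB1, 3 and 2 with LPS, 2 and 2 with LPS/IFNγ, and 0 and 0 in frHMGB1. These counts were 3 and 1, 2 and 2, 2 and 2, and 1 and 0 without PBS replicate 3, and 3 and 3, 2 and 3, 2 and 3, and 0 and 0 with library totals. *Trim21*, the cytosolic antibody receptor, rose 12.1-fold in dsHMGB1, 16.5-fold in LPS and 7.25-fold in LPS/IFNγ over PBS (adjusted p at most 3.19e-08), from 885.4 normalized counts on average. *Fcrl1*, an Fc receptor-like gene, fell by 0.89 (SE 0.13), 1.63 (SE 0.14) and 1.32 (SE 0.13) on the log2 scale. Of 9 partners of the members, 8 were tested, with 4 higher and 1 lower with dsHMGB1, 4 and 2 with LPS, 4 and 2 with LPS/IFNγ, and 3 and 0 in frHMGB1. Without PBS replicate 3 these counts were 5 and 1, 6 and 1, 5 and 1, and 7 and 0, and with library totals 3 and 3, 4 and 4, 3 and 3, and 3 and 0. *Clec4e*, the lectin Mincle, which signals through the FcR gamma chain, rose 290-fold in dsHMGB1 (log2 8.18, SE 0.15), 237-fold in LPS (7.89, SE 0.15) and 94.7-fold in LPS/IFNγ (6.57, SE 0.15), from 318.5 normalized counts on average in PBS, and its rise in frHMGB1 (1.23, SE 0.15, adjusted p = 0.000107) was not called with the pair fitted alone (adjusted p = 0.0549). *Tyrobp*, which encodes DAP12, the other ITAM chain of macrophages, went the opposite way to *Fcer1g*, with log2 fold changes of -0.58 (SE 0.2, adjusted p = 0.0126), -0.52 (SE 0.2, adjusted p = 0.00999) and -0.93 (SE 0.2, adjusted p = 0.000302), of which those in dsHMGB1 and LPS were not called with the pair fitted alone (adjusted p = 0.141 and 0.203). The *Tyrobp* values were -0.22, -0.17 and -0.57 without PBS replicate 3, all called. *Clec4n*, the lectin Dectin-2, which also uses the gamma chain, was 2.75-fold higher in LPS/IFNγ than in LPS (adjusted p = 5.97e-05).

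The genes' positions were set beside their changes. In GRCm38, *Fcgr2b* (ENSMUSG00000026656, chr1:170958617-170976547, minus strand), *Fcgr4* (ENSMUSG00000059089, chr1:171018920-171029761, plus strand), *Fcgr3* (ENSMUSG00000059498, chr1:171051174-171064935, minus strand) and *Fcer1g* (ENSMUSG00000058715, chr1:171229572-171234365, minus strand) lie within 275.7 kb. *Fcgr1* (ENSMUSG00000015947) lies at chr3:96282909-96293969 and *Fcgrt* (ENSMUSG00000003420) at chr7:45092990-45103851, both on the minus strand. *Fcgr3* lies between *Fcgr4* and *Fcer1g*, and it fell in dsHMGB1 where both of these rose. The interval holds 14 genes of the table, of which 11 were tested. *Pcp4l1*, between *Fcgr3* and *Fcer1g*, fell by 2.1 (SE 0.19), 2.15 (SE 0.19) and 2.25 (SE 0.19) on the log2 scale in dsHMGB1, LPS and LPS/IFNγ, and *Sdhc*, a subunit gene of succinate dehydrogenase, was not called in dsHMGB1 (-0.33, SE 0.17, adjusted p = 0.0662) or LPS (-0.23, SE 0.17, adjusted p = 0.0934) and was called lower in LPS/IFNγ (-0.33, SE 0.17, adjusted p = 0.0451). *Gm10522*, a noncoding gene between *Fcgr2b* and *Fcgr4*, averaged 0.42 normalized counts in PBS, 22.34 with dsHMGB1, 56.84 with LPS and 22.2 with LPS/IFNγ. It passed the filter on low counts only through the groups where it is high, so no test is given. These neighbours were named after their values were seen. Genes annotated across the members took few counts: *Gm38204*, antisense to *Fcgr2b*, had 17 counts against 223556, and *Gm45669*, antisense to *Fcgrt*, had 0 against 65235.

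Because *Fcgr4* had the largest rise from LPS to LPS/IFNγ and *Fcgr1* is a textbook IFNγ-responsive receptor, the 250 bases before each RefSeq start (GRCm38.p6) were searched on both strands for 3 motifs. These were the gamma-activated site TTCNNNGAA (7.02% of 32851 promoters), the interferon-stimulated response core GAAANNGAAA (2.98%) and the PU.1 core GAGGAA (23.3%). *Fcgr1* held 1 gamma-activated site, 109 bases before the start, and *Fcgr4* held 1 interferon response core, 73 bases before the start. They are shown on the gene's strand with the match in capitals.
Fcgr1, chr3:96294030-96294118, minus strand: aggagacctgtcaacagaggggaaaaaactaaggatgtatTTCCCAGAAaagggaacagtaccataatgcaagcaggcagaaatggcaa
Fcgr4, chr1:171018813-171018902, plus strand: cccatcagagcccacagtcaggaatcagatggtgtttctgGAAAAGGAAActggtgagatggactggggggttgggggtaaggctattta
The PU.1 core was found before *Fcgr1*, *Fcgr3* and *Fcgr4*, while none of the 3 motifs was found in these windows of *Fcgr2b*, *Fcer1g* and *Fcgrt*. No match overlapped another. The *Fcgr3* windows (chr1:171059354-171059653 and chr1:171059345-171059644) lie inside the gene's GENCODE span, which starts at 171064935 on the minus strand. The *Fcgr2b* window (chr1:170976022-170976321) likewise lies inside its span, which starts at 170976547 on that strand. The bases before these farther GENCODE starts were not searched, so motifs there would have been missed. A match is a description of these letters and not of a bound site. Between LPS/IFNγ and LPS, *Fcgr4* was 3.69-fold higher, while *Fcgr1*, which holds the gamma-activated site, was lower (log2 -0.46). *Fcgr3* held neither interferon motif in its windows and was 2.27-fold higher. Whether the motifs take part in these changes was not tested.

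The genes with the most similar pattern over the 15 libraries were taken from 10101 protein-coding genes by Pearson's r of log2(normalized count + 1), as a description, with libraries of 5 groups as the points. *Fcgr2b* was most like *Cav1* (r = 0.997), *Cp* (0.997) and *Met* (0.995), and *Fcgr1* was most like *Cebpd* (0.996), *Col11a2* (0.995) and *Isg20* (0.995). *Fcgr4* was most like *Rhoh* (0.993), *Cptp* (0.992) and *Carhsp1* (0.99). For *Fcgr3* they were *Tnfrsf12a* (0.982), *Mta3* (0.98) and *Hs1bp3* (0.975), and *Hs1bp3* averaged 2190 normalized counts in PBS, 1409 with dsHMGB1, 2515 with LPS and 7512 with LPS/IFNγ, the same order as *Fcgr3*. *Fcer1g* was most like *Ube2s* (0.993), *Ran* (0.986) and *Dbr1* (0.986), and *Fcgrt* was most like *Map1lc3a* (0.976), *Khk* (0.975) and *S100a13* (0.975). By Spearman's rank correlation *Isg20* ranked 1 for *Fcgr1*, tied with *Ccl4*, but *Cptp* ranked 249 for *Fcgr4* and *Khk* 199 for *Fcgrt*, so the names depend on the measure. For *Fcgrt*, PBS replicate 3 is the library farthest from the others.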

How the data were processed

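RNA sequencing of 15 BMDM libraries was analysed from one table of raw counts per gene, which the authors deposited without normalization. Per the submitters' processing notes, reads were handled with CASAVA, STAR, DESeq2 and GRCm38; no source used here names the counting program or the annotation it used. The table has 0 columns without a sample, and 51661 of 51763 identifiers were found in GENCODE M21. The libraries were stranded, and antisense reads are told apart only if counting used the strand.

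Genes passed edgeR's filterByExpr (10 counts per library of a group, 15 in total). Calls are from edgeR 4.0.16 (quasi-likelihood F test, TMM, all 15 libraries, no covariates, Benjamini-Hochberg adjusted p under 0.05), and normalized counts, unshrunken log2 fold changes and SE from DESeq2 1.42.0, in R 4.3.3. Ratios were tested by two-sided exact permutation with scipy 1.17.1. The tests were checked on simulated data with known changes. Replicate pairs differed by more than sampling noise (chi-square per degree of freedom 4.31 to 763), so none was merged.

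The members and lists were chosen with earlier results of these data known. Named genes are the members, *B2m*, *Trim21*, per list and comparison up to 2 rises and 2 falls with the largest fold changes among called genes with at least 100 normalized counts on average, and per member the 3 most similar genes; the text gives a part of those. Alternatives were DESeq2's test, RLE, other filters, protein-coding genes, pairs fitted alone, a test of a fold above 2, a replicate block, each library left out, other lengths and ratios, and, chosen after seeing the data, library totals and edgeR's fold changes. *Dok2* over PBS, *Sdhc*, *Pcp4l1* and *Gm10522* were named after their values were seen. Results for a few genes of the lists are not reported here.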

Additional observations from a re-analysis of the deposited data

How the results depend on the processing

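With each library left out in turn, the number of members called was 0 to 2 in frHMGB1 against PBS (2 without PBS replicate 3), 6 to 6 in dsHMGB1, 5 to 5 in LPS and 6 to 6 in LPS/IFNγ, each against PBS, and it moved by at most 1 elsewhere. A test of a fold above 2 called 2 members in dsHMGB1 against PBS (10% of all genes higher and 5.7% lower). It called 3 in LPS against PBS (13.6% and 17.3%) and 2 in dsHMGB1 against frHMGB1 (14% and 6.03%). In dsHMGB1 against LPS it called 0 (4.07% and 1.43%), and in LPS/IFNγ against LPS 2 (5.42% and 1.04%). These counts are smaller because the test asks for a larger change. With only 2 groups fitted, 3 members were called in dsHMGB1 against PBS, where 15.7% of all genes were called higher and 14.2% lower. Library totals left 2 in dsHMGB1 against LPS, where 27.5% of all genes were called higher and 5.23% lower. The cause was not tested. Over all genes, frHMGB1 against PBS had 222 higher and 963 lower calls, 1459 and 1576 without PBS replicate 3, 41 and 29 over protein-coding genes, and 7 and 182 with the pair fitted alone. DESeq2 called 502 higher, no filter 96 higher and a filter of 1 CPM 547 lower. With the pair alone, dsHMGB1 against PBS had 2493 higher and 2254 lower calls instead of 3936 and 4092, and LPS against PBS 3685 lower instead of 6121.

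The ratios to *Fcgr2b* kept their direction in all comparisons other than frHMGB1 against PBS. There the log2 difference ranged from -0.13 to 0.36 for *Fcgr1*, from -0.13 to 0.22 for *Fcgr3* and from -0.54 to 0.06 for *Fcgr4* when 1 library was left out, and was 0.08 for *Fcgr3* from summed counts. The replicate numbers did not pair the libraries: over 30 pairs with the same number the median correlation of deviations was -0.005. A replicate block called 0, 6, 5 and 6 members in frHMGB1, dsHMGB1, LPS and LPS/IFNγ against PBS and changed no member's call. Of all genes it called 1.04% higher and 4.96% lower in frHMGB1 and 22.8% and 22.2% in dsHMGB1. In LPS it called 26.5% and 34.6%, and in LPS/IFNγ 28.9% and 29.6%.

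Log2 fold changes that turned sign were, with library totals, *Fcgr3* in LPS against PBS (-0.61), *Fcgr1* (0.21) and *Fcgrt* (0.28) in dsHMGB1 against LPS, and *Fcer1g* (0.19) and *Fcgrt* (0.28) in dsHMGB1 against LPS/IFNγ. Of these, the first was called. That scaling also moved the share of calls that were higher from 54.6% to 34.5% in dsHMGB1 against frHMGB1, from 59.9% to 84% against LPS and from 49.8% to 74.3% against LPS/IFNγ. The values that turned sign in frHMGB1 against PBS were, over protein-coding genes, *Fcgr1* (-0.02), *Fcgr3* (-0.04), *Fcer1g* (-0.08) and *Fcgr2b* (-0.04), and *Fcer1g* with a filter of 1 CPM (-0.02) or the pair alone (-0.03). Leaving out 1 library gave -0.01 to 0.26 for *Fcgr1*, -0.15 to 0.32 for *Fcer1g* and -0.1 to 0.12 for *Fcgr2b* there, and for *Fcgrt* -0.11 to 0.01 in dsHMGB1 against LPS and -0.1 to 0.03 against LPS/IFNγ. For *Fcgrt* in LPS/IFNγ against LPS, edgeR gave 0.02 and protein-coding genes 0.06. For the members, calls that ended are given beside each result, apart from those lost in the test of a fold above 2. For that test counts alone are given, and only for part of the comparisons. For genes of the lists, not every call that ended is given.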
